A study of Mus musculus with 4 samples.

Results

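The genes described here encode 2 families of proteins that bind the 3′ untranslated region (3′UTR) of messenger RNA: Zfp36, Zfp36l1 and Zfp36l2 of the Zfp36 (tristetraprolin) family, and Cpeb1, Cpeb2, Cpeb3 and Cpeb4 of the cytoplasmic polyadenylation element-binding family. They were chosen by gene name, and all 7 were found among the 23453 genes of the deposited table. In GENCODE M21 (GRCm38, a later build than the authors' mm9) Zfp36 (ENSMUSG00000044786) spans chr7:28376784-28380253, Zfp36l1 (ENSMUSG00000021127) chr12:80107754-80113013 and Zfp36l2 (ENSMUSG00000045817) chr17:84183931-84187947. Cpeb1 (ENSMUSG00000025586) spans chr7:81347026-81455465, Cpeb2 (ENSMUSG00000039782) chr5:43233170-43289724, Cpeb3 (ENSMUSG00000039652) chr19:37021291-37208601 and Cpeb4 (ENSMUSG00000020300) chr11:31872211-31935634. RNA came from hippocampal neurons of newborn C57BL/6NCrl mice, cultured to day 12 in vitro. The 2 control libraries came from cells given the solvent DMSO, which kept their basal synaptic activity, and the 2 AP bursting libraries came from cells given 50 µM bicuculline for 4 h. Bicuculline blocks GABA-A receptors, and so lifts inhibition, upon which the cells fire action potentials (APs) in bursts. The study compared the groups to see which messenger RNAs synaptic activity changes, in 2 independent experiments on separate cell preparations.

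Zfp36 proteins bind AU-rich elements through a tandem pair of CCCH zinc fingers and recruit the CCR4-NOT deadenylase, so that the bound messenger RNA loses its poly(A) tail and decays. In macrophages and fibroblasts Zfp36 is an early-response gene that limits cytokine RNAs and also acts on its own messenger. CPEB proteins bind a U-rich cytoplasmic polyadenylation element (CPE) and, depending on their state, hold the messenger silent with a short tail or allow the tail to be lengthened and the messenger to be translated, a control known from oocytes and from dendrites of neurons.

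The sequence that Zfp36 proteins bind is shown first, since the family members carry it in their own messengers as well. The core element UAUUUAU, written TATTTAT in DNA letters and in capitals, is given in a 30-base window of each 3′UTR, next to those of 2 messengers reported as Zfp36 targets, the transcription factor Fos and the cyclooxygenase Ptgs2. Sequences and GRCm38 positions are from the GENCODE M21 transcripts.
Zfp36 3′UTR, chr7:28376958-28376987, minus strand: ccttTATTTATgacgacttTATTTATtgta
Zfp36l1 3′UTR, chr12:80108428-80108457, minus strand: atttaacttatcaaaacgTATTTATtgcca
Zfp36l2 3′UTR, chr17:84184914-84184943, minus strand: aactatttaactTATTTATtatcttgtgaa
Fos 3′UTR, chr12:85477102-85477131, plus strand: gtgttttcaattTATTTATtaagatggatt
Ptgs2 3′UTR, chr1:150105794-150105823, plus strand: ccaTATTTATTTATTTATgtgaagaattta

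Each of the 3 Zfp36 family 3′UTRs held 3 copies of TATTTAT on the RNA strand, overlapping copies included. They lie within 774 bases in Zfp36, 1835 in Zfp36l1 and 1822 in Zfp36l2. Among all 3′UTRs of 500 to 999 bases, 18.9% held at least 1 copy and 1.13% at least 3, and among those of 1000 to 1999 bases the shares were 32.2% and 2.77%. A match describes the letters and is not a measured binding site. In the Cpeb messengers the CPE, searched as TTTTAT or TTTTAAT, was found 4 times in Cpeb1, 24 times in Cpeb2, 6 times in Cpeb3 and 17 times in Cpeb4. Of all 3′UTRs of 2000 to 3999 bases, the length class of Cpeb2 (3778 bases) and Cpeb3 (3569 bases), 89.5% held at least 1 CPE. The share was 72.1% in the class of Cpeb1 (1315 bases), 1000 to 1999 bases. In that of Cpeb4 (4102 bases), 4000 bases or more, it was 97.3%. Per kb there were 6.35 CPEs in Cpeb2 and 1.68 in Cpeb3, beside 1.30 over their class. Cpeb1 had 3.04 per kb beside 1.28 over its class, and Cpeb4 4.14 beside 1.34. A window of Cpeb2 and one of Cpeb4, chosen for holding 2 CPEs of the form TTTTAT (in capitals), show the element.
Cpeb2 3′UTR, chr5:43289226-43289255, plus strand: atTTTTATgtgaaaatatataaTTTTATga
Cpeb4 3′UTR, chr11:31933780-31933809, plus strand: aTTTTATtttcttatattctgctTTTTATa

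The deposited table gives group means, and the reads of the 4 libraries were worked out from them (see the processing account). Each group has a deeper and a shallower library, with size factors of 1.33 and 0.914 in controls and 1.27 and 0.661 after AP bursting. Libraries of like depth resembled each other more than libraries of like treatment, with a correlation of log2 levels across 13648 genes of 0.962 for both deep and 0.936 for both shallow libraries, against 0.906 within controls and 0.873 within AP bursting. They are therefore also compared as a deep pair and a shallow pair. The labels number the replicates of each group, but the resolved libraries carry no such number, so this pairing rests on the values. Whether the libraries of a pair share a cell preparation is not known, and depth and preparation cannot be told apart. The 8 neuronal markers, among them Map2 and Snap25, had deposited means from 2847 to 40401 normalized reads in controls and from 3158 to 45638 after AP bursting. The summed level of 6 microglia markers stayed between 42.0 and 80.2 in the 4 libraries, with 2 of the 6 at 0 in the deep control library. The 6 astrocyte markers summed to 8936 normalized reads in the deep control library, 11529 in the shallow one, and 9243 and 14984 after AP bursting. In the same order the 6 oligodendrocyte markers summed to 1792, 2162, 1763 and 2711, the 5 fibroblast markers to 1527, 1488, 1753 and 2007, and 4 endothelial markers to 79.4, 89.7, 43.3 and 86.3. The shallow AP bursting library thus had the highest sum of astrocyte, oligodendrocyte and fibroblast markers. Of these 6 marker lists 0 genes were called in the authors' deposited table. In the fits described next 0 were called too, but of the 8 neuronal markers only Rbfox3 could be resolved into libraries and tested there. In such a bulk sample a change in the share of a cell type and a change of RNA per cell cannot be told apart.

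None of the 7 genes passed the authors' test, and 5 of the 7 were higher in a fit that removes the difference between the pairs of libraries. In the authors' deposited table all 7 had a fold above 1, from 1.14 for Cpeb4 to 4.41 for Zfp36, and all had an adjusted p of 1 (0.61% of all genes were called higher there, 0% lower). limma on the 4 libraries without the pairing called 0 of the 7 at an adjusted p below 0.05, and 1 of them, Cpeb3, had an unadjusted p below 0.05. That fit called 0.00989% of all 20226 genes tested higher. With the pair as a replicate block limma called Zfp36, Zfp36l1, Zfp36l2, Cpeb2 and Cpeb3 higher and 0 lower, against a background of 6.87% of all genes higher and 6.1% lower. Cpeb1 and Cpeb4 did not pass in any fit. The 5 calls rest on a variance borrowed across genes by their expression level, since the block leaves 1 residual degree of freedom: without that trend the block fit called 0 of the 7 and 0 of all genes.

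**Figure D1:**
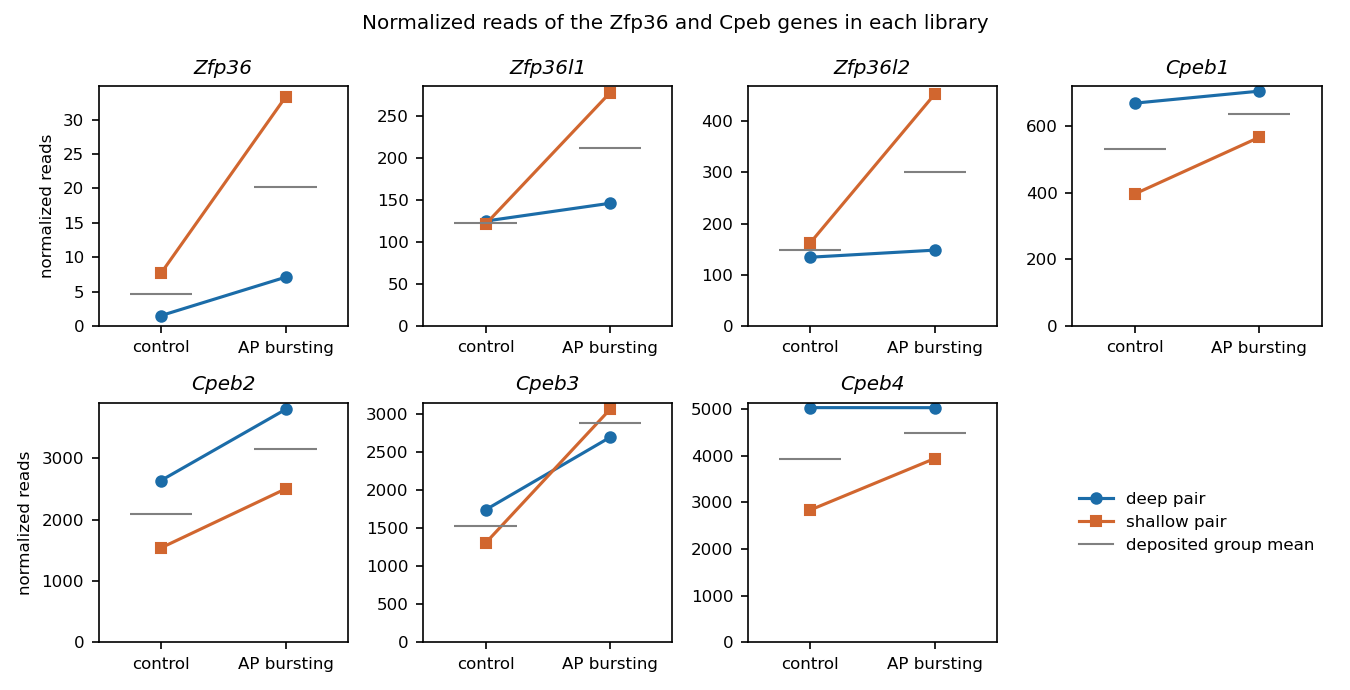
Normalized reads of each gene (y axis, starting at 0) in the control and AP bursting libraries. Lines join the libraries of the deep pair (circles) and of the shallow pair (squares), and grey bars are the deposited group means. The lines of Zfp36, Cpeb2 and Cpeb3 climb in both pairs, those of Zfp36l1 and Zfp36l2 mainly in the shallow pair, and that of Cpeb4 is level in the deep pair at 5032 and 5031 normalized reads.

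Zfp36, the founding member of its family, was the least abundant of the 7 genes. It stood at 1.50 and 7.66 normalized reads in the deep and shallow control library and at 7.08 and 33.3 after AP bursting. These values rest on 2, 7, 9 and 22 reads. The shallow AP bursting library was the highest of the 4, and the groups overlapped, since the deep AP bursting library lay just below the shallow control. Within each pair the level rose by a like factor, 4.73-fold in the deep pair (exact 95% counting interval 0.978 to 45.0) and 4.35-fold in the shallow pair (1.79 to 12.1). Such intervals cover counting error in those libraries only. limma with the replicate block gave a log2 fold of 1.84 (SE 0.53, n = 2 libraries per group, Benjamini-Hochberg adjusted p = 0.00700), on log2(normalized reads + 1), a scale that understates the change of a gene this low. Without the block the log2 fold was the same with an SE of 1.00 and an adjusted p of 1.00. Zfp36 was also 5.11 times higher in the shallow than in the deep control library and 4.70 times higher in the shallow AP bursting library than in the deep one, a ratio close to that between treatments. The summed astrocyte markers were higher in the shallow libraries as well, a sum led by Gfap, at 3001 and 6178 normalized reads in the deep and shallow control library and 3423 and 7962 after AP bursting. Of the other astrocyte markers S100b and Gja1 were lower in the shallow library of both groups, and Slc1a2 in that of the controls. Their part in the Zfp36 level was not tested.

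The paralogs Zfp36l1 and Zfp36l2, which share the zinc fingers and the AU-rich target, were present at clearly higher counts. Zfp36l1 stood at 125 and 121 normalized reads in the deep and shallow control library and at 146 and 279 after AP bursting. Both AP bursting libraries lay above both controls, and the shallow one stood well apart. Zfp36l2 stood at 134 and 162 normalized reads in controls and at 148 and 453 after AP bursting. Only its shallow AP bursting library stood out, and the groups overlapped. The fold in the deep pair was 1.17 for Zfp36l1 (exact 95% counting interval 0.944 to 1.45) and 1.10 for Zfp36l2 (0.894 to 1.36). In the shallow pair it was 2.29 (1.80 to 2.93) for Zfp36l1 and 2.80 (2.29 to 3.43) for Zfp36l2. The intervals of the pairs did not overlap for either gene, so the pairs differed by more than counting error. The shallow AP bursting library, the highest for both genes, also had the highest sums of astrocyte, oligodendrocyte and fibroblast markers, and their part in these values was not tested. The average over both pairs, in limma with the replicate block, was a log2 fold of 0.71 for Zfp36l1 (SE 0.26, adjusted p = 0.0447) and 0.81 for Zfp36l2 (SE 0.25, adjusted p = 0.0110). These SEs come from the variance trend across genes and do not measure the gap between the pairs. In limma with the block but no trend the SE was 0.32 for Zfp36l1 (adjusted p = 0.389) and 0.40 for Zfp36l2 (adjusted p = 0.424). The call of Zfp36l1 was lost with a pseudocount of 8 (adjusted p = 0.0753), when genes with a mean under 50 were left out (0.0740), with no filter (0.0546) and with scaling to total resolved reads (0.162). That of Zfp36l2 was lost with scaling to total resolved reads (0.0886).

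The family sum, which is nearly all Zfp36l1 and Zfp36l2, went from 261 to 301 normalized reads in the deep pair and from 291 to 764 in the shallow pair, a ratio of 1.16 and of 2.63. The libraries do not keep strand. In GENCODE M21, 1672 of the 2990 exon bases of Zfp36l1 are shared with exons of Gm26669, a long non-coding RNA on the opposite strand, and 105 of the exon bases of Zfp36l2 and 125 of those of Zfp36 with antisense genes. Of the Cpeb genes, Cpeb2 shares 137 exon bases and Cpeb3 116 with antisense genes. Reads from these stretches cannot be assigned to a strand.

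Cpeb3, a CPEB protein that represses messengers of AMPA receptor subunits in neurons, had the smallest adjusted p of the 7. It stood at 1742 and 1305 normalized reads in the deep and shallow control library and at 2695 and 3064 after AP bursting. Both AP bursting libraries lay far above both controls, with group values of 1523 ± 309 and 2880 ± 260 (SD, n = 2). The fold was 1.55 in the deep pair (exact 95% counting interval 1.47 to 1.63) and 2.35 in the shallow pair (2.18 to 2.52). limma with the replicate block gave a log2 fold of 0.93 (SE 0.17, adjusted p = 3.14e-06). Without the block the SE was 0.36, with an unadjusted p of 0.0434 and an adjusted p of 1.00. Of the 7 genes Zfp36l1 and Cpeb3 were the 2 whose groups did not overlap with AP bursting above, against 12.6% of all genes tested.

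Cpeb2, of the CPEB subfamily that also holds Cpeb3 and Cpeb4, was higher after AP bursting within each pair. It stood at 2637 and 1540 normalized reads in the deep and shallow control library and at 3795 and 2501 after AP bursting. The groups overlapped, because the deep control lay above the shallow AP bursting library. The fold was 1.44 in the deep pair (exact 95% counting interval 1.38 to 1.50) and 1.62 in the shallow pair (1.51 to 1.74). limma with the replicate block gave a log2 fold of 0.61 (SE 0.17, adjusted p = 0.00450).

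Cpeb1, the founding CPEB protein that controls polyadenylation of messengers such as that of Camk2a, stood at 668 and 396 normalized reads in controls and at 705 and 566 after AP bursting. Cpeb4 stood at 5032 and 2837 normalized reads in controls and at 5031 and 3942 after AP bursting. For both genes the deep libraries differed little between treatments, and the shallow control was the lowest library. In the deep pair the fold was 1.05 for Cpeb1 (exact 95% counting interval 0.960 to 1.16) and 1.00 for Cpeb4 (0.966 to 1.03). In the shallow pair it was 1.43 (1.23 to 1.66) for Cpeb1 and 1.39 (1.32 to 1.47) for Cpeb4. limma with the replicate block gave a log2 fold of 0.30 for Cpeb1 (95% interval -0.11 to 0.70, adjusted p = 0.426) and 0.24 for Cpeb4 (-0.08 to 0.55, adjusted p = 0.411). In that fit the intervals reach up to a rise of 1.62-fold in Cpeb1 and 1.47-fold in Cpeb4. They rest on the variance borrowed across genes. Without the block the 95% intervals of the log2 fold were wider, -0.77 to 1.36 for Cpeb1 and -0.81 to 1.28 for Cpeb4. Larger rises are therefore not excluded.

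**Figure D2:**
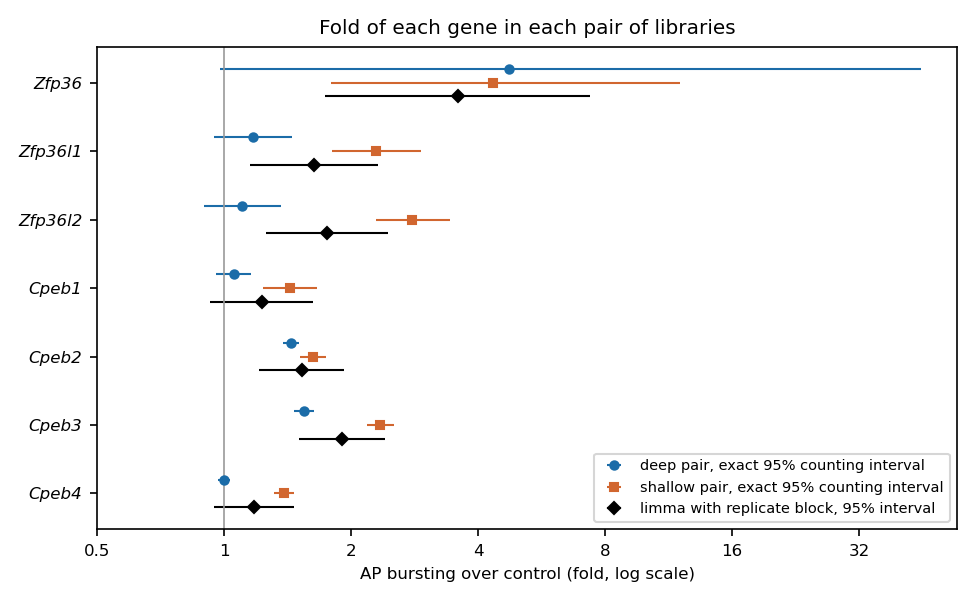
Fold of AP bursting over control for each gene (x axis, log scale, line at 1) in the deep pair, in the shallow pair and in limma with the replicate block. Bars are exact 95% counting intervals for the pairs and the 95% interval of the fit. The shallow pair shows the larger fold in 6 of the 7 genes, the exception being Zfp36, and the counting intervals of the pairs are apart in those 6. The share of all genes with this pattern was not computed.

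Of the 7 genes 6, all but Cpeb4, were higher in both pairs, as were 31.6% of all genes tested. The deep-pair counting interval held 1 for 5 genes (Zfp36, Zfp36l1, Zfp36l2, Cpeb1 and Cpeb4) where the shallow-pair interval held 1 for 0. Such counts were not made over all genes, so they cannot be read as particular to these 7. The 1196 genes with a 3′UTR called higher with the block also had a larger median log2 fold in the shallow pair, 1.16 against 0.84. For the 1085 called lower the medians were -0.96 and -0.79. With 1 library per pair and treatment the difference between pairs has no test beyond counting error.

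**Figure D3:**
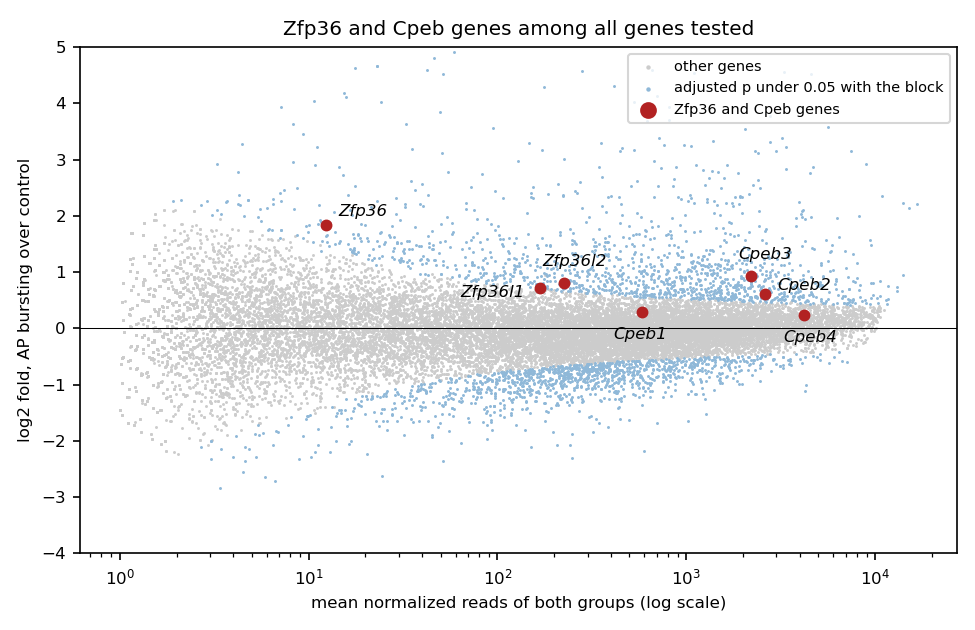
Log2 fold from limma with the replicate block (y axis) against the mean normalized reads of both groups (x axis, log scale) for the 20226 genes tested, with 11 genes outside the plotted range. Zfp36 lies at the low end of expression with the largest log2 fold of the 7, 1.84, and Cpeb3 at 0.93 is the highest of the abundant members.

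Divided by exon length, the Cpeb genes had higher levels than the Zfp36 family in every library. In controls the normalized reads per kb of exon were 790 and 445 for Cpeb4 in the deep and shallow library, 337 and 197 for Cpeb2, 235 and 176 for Cpeb3 and 159 and 94.5 for Cpeb1. Those of the Zfp36 family were 38.0 and 45.9 for Zfp36l2, 41.9 and 40.6 for Zfp36l1 and 0.432 and 2.21 for Zfp36. Neighbours in this order whose control values overlapped were Cpeb2 with Cpeb3 and Zfp36l2 with Zfp36l1, and the other neighbours were apart. After AP bursting the per-kb level of Cpeb4 was 790 and 619, that of Cpeb2 486 and 320 and that of Cpeb3 364 and 413, while Cpeb1 stood at 168 and 135. Zfp36l2 then stood at 41.9 and 128, Zfp36l1 at 49.0 and 93.2 and Zfp36 at 2.04 and 9.60 normalized reads per kb. The same neighbours overlapped as in controls. The exon length used for Zfp36, 3470 bases, covers its whole gene span, so any intron is counted as exon and its per-kb level may be understated.

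The promoter windows of the Zfp36 family that the RefSeq table holds (GRCm38.p6, 250 bases before to 50 after the start) are shown because these are early-response genes in other cells. Capitals mark matches on either strand to the CRE (TGACGTCA), its core TGACG, which the CRE contains, AP-1 (TGANTCA), EGR (GCGTGGGCG), the E-box CACGTG, the TATA motif TATAAA and the CArG box, the element bound by SRF.
Zfp36 promoter, chr7:28379179-28379478, minus strand: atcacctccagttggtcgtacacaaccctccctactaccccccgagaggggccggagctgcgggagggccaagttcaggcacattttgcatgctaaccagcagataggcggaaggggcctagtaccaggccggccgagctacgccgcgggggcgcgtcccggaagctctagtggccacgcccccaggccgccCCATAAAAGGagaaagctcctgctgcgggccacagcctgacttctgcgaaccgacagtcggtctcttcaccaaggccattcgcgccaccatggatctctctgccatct
Zfp36l1 promoter, chr12:80112964-80113263, minus strand: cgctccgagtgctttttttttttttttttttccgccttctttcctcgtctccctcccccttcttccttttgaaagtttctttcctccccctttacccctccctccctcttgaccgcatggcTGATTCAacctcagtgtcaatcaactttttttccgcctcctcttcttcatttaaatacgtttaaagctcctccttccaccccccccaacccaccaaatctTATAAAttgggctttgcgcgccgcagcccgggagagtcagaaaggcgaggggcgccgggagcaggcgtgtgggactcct

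The Zfp36 window held 1 match, a CArG box from 58 to 49 bases before the start, a stretch that is also TATA-like, and CArG boxes were found in 1.63% of 32851 promoter windows. The Zfp36l1 window held an AP-1 match from 129 to 123 bases before the start (7.81% of windows hold one) and a TATA motif (13.6%). Of the Cpeb genes, windows of Cpeb1, Cpeb3 and Cpeb4 were searched. Cpeb1 held a CRE core (20.8% of windows), an E-box (7.15%) and a TATA motif, 1 of the 3 Cpeb3 windows held a CRE core, and Cpeb4 held 0 of these motifs. No factor's binding was measured.

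By the pattern over the 4 libraries, the gene nearest to Zfp36 was Jund, a JUN-family AP-1 factor, at a distance of 0.27 between centred log2 levels among 13648 genes searched. The pattern of Zfp36 itself rests on 2 to 22 reads per library. Its distances, and the count of genes near it, are therefore uncertain, and shared control with Jund was not tested. Jund stood at 1187 and 4114 normalized reads in the deep and shallow control library and at 3188 and 13470 after AP bursting. The next was listed in the table under a date in place of its name, and its Ensembl ID (ENSMUSG00000022269) is that of March11 in GENCODE, at a distance of 0.40. Nearest to Zfp36l1 were Map3k13 (0.06) and Mid1 (0.08), and to Zfp36l2 Ephb4 (0.18) and Ern1 (0.20). Nearest to Cpeb3 were Zscan18, listed as AC161211.21 (0.09), and Galnt3 (0.10). Acot9 lay close to Cpeb2 (0.04). Cpeb1 was nearest to Slc1a4 (0.04) and Gm10010, listed as AC157651.3 (0.04), and Cpeb4 to AL606904.12-1 and Enpp2 (both 0.06). Within a distance of 0.3 lay 436 genes around Cpeb1 and 425 around Cpeb4, against 1 around Zfp36, 11 around Zfp36l2, 59 around Zfp36l1, 61 around Cpeb3 and 174 around Cpeb2.

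Among 15 kinases, phosphatases and 14-3-3 proteins that act on the 2 families, 0 passed in the authors' deposited table. Over the libraries 3 of the 11 tested passed as higher with the replicate block in limma and 0 as lower. That fit called 6.87% of all genes higher and 6.1% lower. Mapkapk2, the kinase (MK2) that phosphorylates Zfp36 and weakens its hold on the deadenylase, stood at 434 and 497 normalized reads in controls and at 872 and 1020 after AP bursting. Its groups did not overlap, and its log2 fold was 1.02 (SE 0.20, adjusted p = 1.19e-05), at 1.01 for the deep pair and 1.04 for the shallow one. The related kinase Mapkapk3 had log2 folds of 0.90 within the deep pair and 1.34 within the shallow one (adjusted p = 0.00452), and Rps6ka3, the ribosomal S6 kinase RSK2, had 0.80 over both (adjusted p = 0.000629). The median log2 fold of the 11 was 0.03, beside -0.02 over all genes tested.

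Partners in messenger turnover and translation gave few calls, beside a background with the block of 6.87% of all genes higher and 6.1% lower. In that fit 3 of 15 other 3′UTR-binding proteins were lower and 0 higher. Among them were Rc3h2, which binds stem loops in decaying messengers (log2 fold -0.69, adjusted p = 0.00170), and Tia1, which holds messengers silent in stress granules (-0.62, adjusted p = 0.0119). Of 24 genes of deadenylation and decapping 0 were higher and 1 lower, the exonuclease Xrn1 (log2 fold -0.68, adjusted p = 0.0237). Among the 15 genes of polyadenylation and translational control 1 was higher, Ago2, the Argonaute of microRNA silencing, listed as Eif2c2 (log2 fold 0.62, adjusted p = 0.00678), and 0 were lower. The authors' deposited table called 0 genes of these 3 lists. Their median log2 folds with the block were -0.05, -0.26 and -0.05. No list was tested as a whole.

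Messengers reported elsewhere as targets of the Zfp36 proteins, mostly outside neurons, held more calls. Of 22 in the table, 4 rose in the authors' deposited table and 0 fell, beside 0.61% of all genes called higher there and 0% lower. The 4 were Fos (192-fold, adjusted p = 1.15e-21), Ptgs2 (43.7-fold, adjusted p = 1.4e-13), the kinase Pim1 (40.9-fold, adjusted p = 1.75e-12) and the MAP kinase phosphatase Dusp1 (10.1-fold, adjusted p = 1.36e-05). With the block 8 of the 18 tested were higher and 0 lower, beside 6.87% and 6.1% of all genes tested. Their median log2 fold was 0.81, beside -0.02 over all genes tested. Of 16 reported CPEB targets 2 rose in the authors' deposited table, the plasminogen activator Plat (4.64-fold, adjusted p = 0.0113) and the neurotrophin Bdnf (8.91-fold, adjusted p = 2e-05), and 0 fell. With the block these 2 were joined by the NMDA receptor subunit Grin1 (log2 fold 0.50, adjusted p = 0.00848), among 10 tested, and the median log2 fold was 0.14. Both lists hold known activity-regulated genes and were written with results of these data known.

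**Figure D4:**
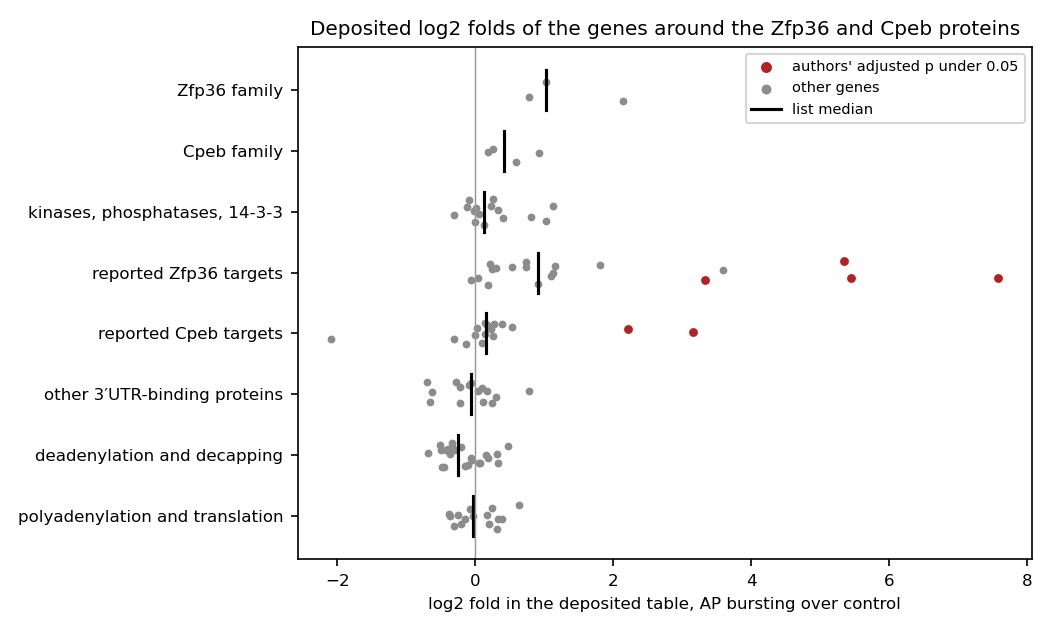
Log2 fold in the authors' deposited table (x axis) of the members and of the 6 related lists, 1 point per gene with a finite fold, spread vertically for legibility. Red points passed the authors' threshold and black bars are list medians. The red points lie among the reported targets, 4 for Zfp36 and 2 for Cpeb, and the median of the Zfp36 family, 1.02, lies right of that of the Cpeb family, 0.42.

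The TATTTAT element was also counted over all 3′UTRs. Of the 127 genes called higher by the authors that had a 3′UTR here, 62 (48.8%) held at least 1 copy, beside 28.8% of 15394 genes tested. The density was 0.613 copies per kb in those 127 and 0.292 in all. Their 3′UTRs were somewhat longer, with a median of 1221 against 1098 bases. In 3′UTRs of 500 to 999 bases the share was 50.0% of 28 called genes against 18.9% of all, and in those of 2000 to 3999 bases 56.0% of 25 against 48.8%. It was 52.4% of 42 against 32.2% in those of 1000 to 1999 bases. In those of 1 to 499 bases it was 15.8% of 19 against 7.03%, and in those of 4000 bases or more 90.0% of 10 against 68.0%. Over all genes tested, those with at least 3 copies had a median log2 fold of 0.01 within the deep pair and 0.11 within the shallow one, against -0.02 in each for genes with 0 copies. Their 3′UTRs also differed in length, with a median of 3231 against 797 bases. Among 3′UTRs of 2000 to 3999 bases the shallow-pair median was 0.03 with at least 1 copy and 0.04 with 0, and among those of 4000 bases or more it was 0.08 and 0.13. In the same order it was 0.04 and 0.0002 among those of 1000 to 1999 bases. It was -0.03 and -0.01 among those of 500 to 999 bases, and -0.08 and -0.09 among those of 1 to 499 bases.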

How the data were processed

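RNA was sequenced from 4 libraries, 2 control and 2 AP bursting. Per the labels' protocols, Illumina libraries without strand information were made from total RNA. The submitters' processing notes name build mm9, DESeq 1.12.0, TopHat 1.2.0 and SAMtools 0.1.19. Not given in the sources used here are the annotation and the tool that counted reads. Per the file headers, the deposited table holds each group's mean signal in normalized counts, their ratio (fold) and the authors' adjusted p-value.

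Since 1 read adds a fixed step per library to such a mean, each mean was searched for the 2 whole read counts that give it. The match had to lie within the rounding error of the printed mean, widened by 5% and by the uncertainty of the steps. Exactly 1 solution was found for 98.8% of the 23453 means in controls and for 99.5% after AP bursting. The remaining 282 and 116 means, at 10014.5 or higher, were left unresolved. Of 500 values per group moved at random, 1 and 0 had a single solution. The resolved reads came to 20954659 and 13337809 in controls and 25520205 and 13179309 after AP bursting, over the resolved part of each group alone.

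Differences were tested two-sided in limma 3.58.1 (R 4.3.3), with a variance trend, on log2(normalized reads + 1). The fit held the 20226 resolved genes whose mean reached 1, with a Benjamini-Hochberg adjusted p below 0.05 as the threshold. The fit without a block was planned as the main one. The resolved libraries carry no replicate number, and the pairing by depth comes from the correlation of deep minus shallow differences between the groups (r = 0.878 across genes, which are not independent replicates). With the block 1 residual degree of freedom is left, and the variance comes from the trend across genes. The planned edgeR test, which needs counts per sample, was not run. Counting intervals are exact binomial ones (scipy 1.17.1). Fit and search were tested on simulated data. Exon lengths and 3′UTRs (the complete coding transcript with the longest 3′UTR) came from GENCODE M21 on GRCm38, matched by Ensembl ID, and 5 of the 7 genes were in the RefSeq promoter table.

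The members and the lists of genes (6 related and 6 of cell types) were chosen with earlier results of these data known. All 7 members are named. Of the related lists, genes past the authors' threshold and up to 4 per list past the fit with the block are named, and for each member the 2 genes with the nearest pattern among those with a mean of at least 50. Of the genes this rule names, 2 are not reported here. Alternatives were another threshold, pseudocount, filter, scaling, no trend, the block and leaving out each library.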

Additional observations from a re-analysis of the deposited data

How the results depend on the processing

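With 2 libraries per group, the calls of the members rest on the replicate block. The number called over the resolved libraries was 0 without it and 5 with it. With the block it was 4 with a pseudocount of 8, 3 when only genes with a mean of 50 or more were kept, 4 with no filter, 3 with scaling to total resolved reads and 0 without the trend. The block fits with another filter, scaling or no trend were chosen after seeing the data. Over all genes the fit without the block called 2 higher and 0 lower, against 1390 and 1234 with it, 1347 and 1116 with a pseudocount of 8, 1126 and 960 with a minimum mean of 50, 1360 and 1178 with no filter, and 995 and 1930 with scaling to total resolved reads. Those totals cover only genes resolved in both groups. Under that scaling the median log2 fold over all genes went from -0.02 to -0.16. Without the trend the block fit called 0 in either direction. Without the block, 0 genes were called higher with a minimum mean of 50 and 0 without the trend. When each library was left out in turn without the block, limma called 2 to 28 genes higher, 0 lower and 0 members. Leaving out the shallow control library turned the log2 fold of Cpeb1 to -0.082 and that of Cpeb4 to -0.18, and the cause was not tested. Over the leave-one-out fits their highest values were 0.67 and 0.65. Leaving out 1 library moved the log2 fold of Zfp36 between 0.80 and 2.88, that of Zfp36l1 between 0.25 and 1.17, that of Zfp36l2 between 0.01 and 1.61, that of Cpeb2 between 0.22 and 1.00 and that of Cpeb3 between 0.72 and 1.14. A pseudocount of 8 took the log2 fold of Zfp36 from 1.84 to 1.03. With the authors' threshold at 0.1 still 0 members passed. Depth limits Zfp36 most, with 2 to 22 reads per library.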
